A study of Homo sapiens with 12 samples.

Results

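The genes described here encode the proteins of the mitochondrial ribosome that carry MRPL (large subunit) or MRPS (small subunit) symbols. They were chosen by symbol, with the brightest single-gene probe set for each gene. MRPS12 was left out, with earlier results of these data known. This gave 75 of the 10346 genes measured by a single-gene probe set. Of these 75, 74 encode proteins and 1, MRPL20-AS1, is an RNA antisense to MRPL20. All 75 members passed the filter on low values, so every member was tested.

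Mitochondria keep their own ribosome, which translates the few messages encoded in mitochondrial DNA, all of them for subunits of the respiratory chain and the ATP synthase. The ribosomal RNAs come from mitochondrial DNA, but every protein of this ribosome is encoded in the nucleus, made in the cytosol and imported. Some of the proteins descend from bacterial ribosomal proteins. Others have no bacterial counterpart and are called mitochondria-specific. The promoters of many nuclear genes for mitochondrial proteins carry sites for ETS-family factors, in particular GABP, and for NRF1 and YY1.

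U251 is an established human glioblastoma cell line. The cells were transfected with siRNA pools against both ETV6 and NFKB1 (double siRNA), against NFKB1, against ETV6, or with a control siRNA directed at no human transcript, each siRNA at 50 nM, and each group had 3 arrays. ETV6 is an ETS-family protein that represses transcription. NFKB1 codes for one of the NF-kB transcription factor subunits. When RNA was collected, and whether control cells received as much siRNA in total as double siRNA cells, are not stated in the labels.

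The targeted genes were lower than in control siRNA cells in every group that received their siRNA. ETV6 had a mean log2 level of 7.36 ± 0.07 in double siRNA cells, 8.70 ± 0.05 in NFKB1 siRNA cells and 6.73 ± 0.11 in ETV6 siRNA cells, against 8.87 ± 0.26 in control siRNA cells (SD, n = 3 each). NFKB1 had 6.55 ± 0.05 in double siRNA cells, 6.59 ± 0.47 in NFKB1 siRNA cells and 7.81 ± 0.06 in ETV6 siRNA cells, against 7.32 ± 0.15 in control siRNA cells (SD, n = 3 each). All 7 glioma and astrocyte markers listed were above the filter. Of 9 markers of other cell types only SYT1 and MBP had a single-gene probe set, and neither passed the filter. The double siRNA arrays stood apart in technical probe sets. Their poly-A spike-in probe sets averaged log2 7.97 to 8.05, against 8.37 to 9.35 on the other 9 arrays, and their ACTB 5′ minus 3′ probe set difference was -2.05 to -2.16, against -1.52 to -1.91 on the others. Low values were also higher on them: the 5th percentile of all probe sets was 6.15 to 6.16, against 5.46 to 6.04. The median of all probe sets was 8.34 to 8.38, against 8.08 to 8.27. The part of these differences in the results below was not tested. Since RNA was measured in bulk, fewer cells of a kind and less RNA per cell cannot be told apart.

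With double siRNA, 53 of the 75 members fell and 6 rose against control siRNA (limma, adjusted p under 0.05). Calls were common across the arrays: of the 7760 genes tested, 49% were called lower and 31.9% higher. The median log2 change of the members was -0.32, beside -0.13 for all genes tested. A change of over 1.5-fold was reached by 14 members, all lower, which is 18.7% of the members, beside 13.9% of all genes. No member exceeded a change of 1.5-fold upward, although 1284 of all genes did. Most members thus fell, mostly by less than 1.5-fold, in cells in which most genes were called changed.

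**Figure D1:**
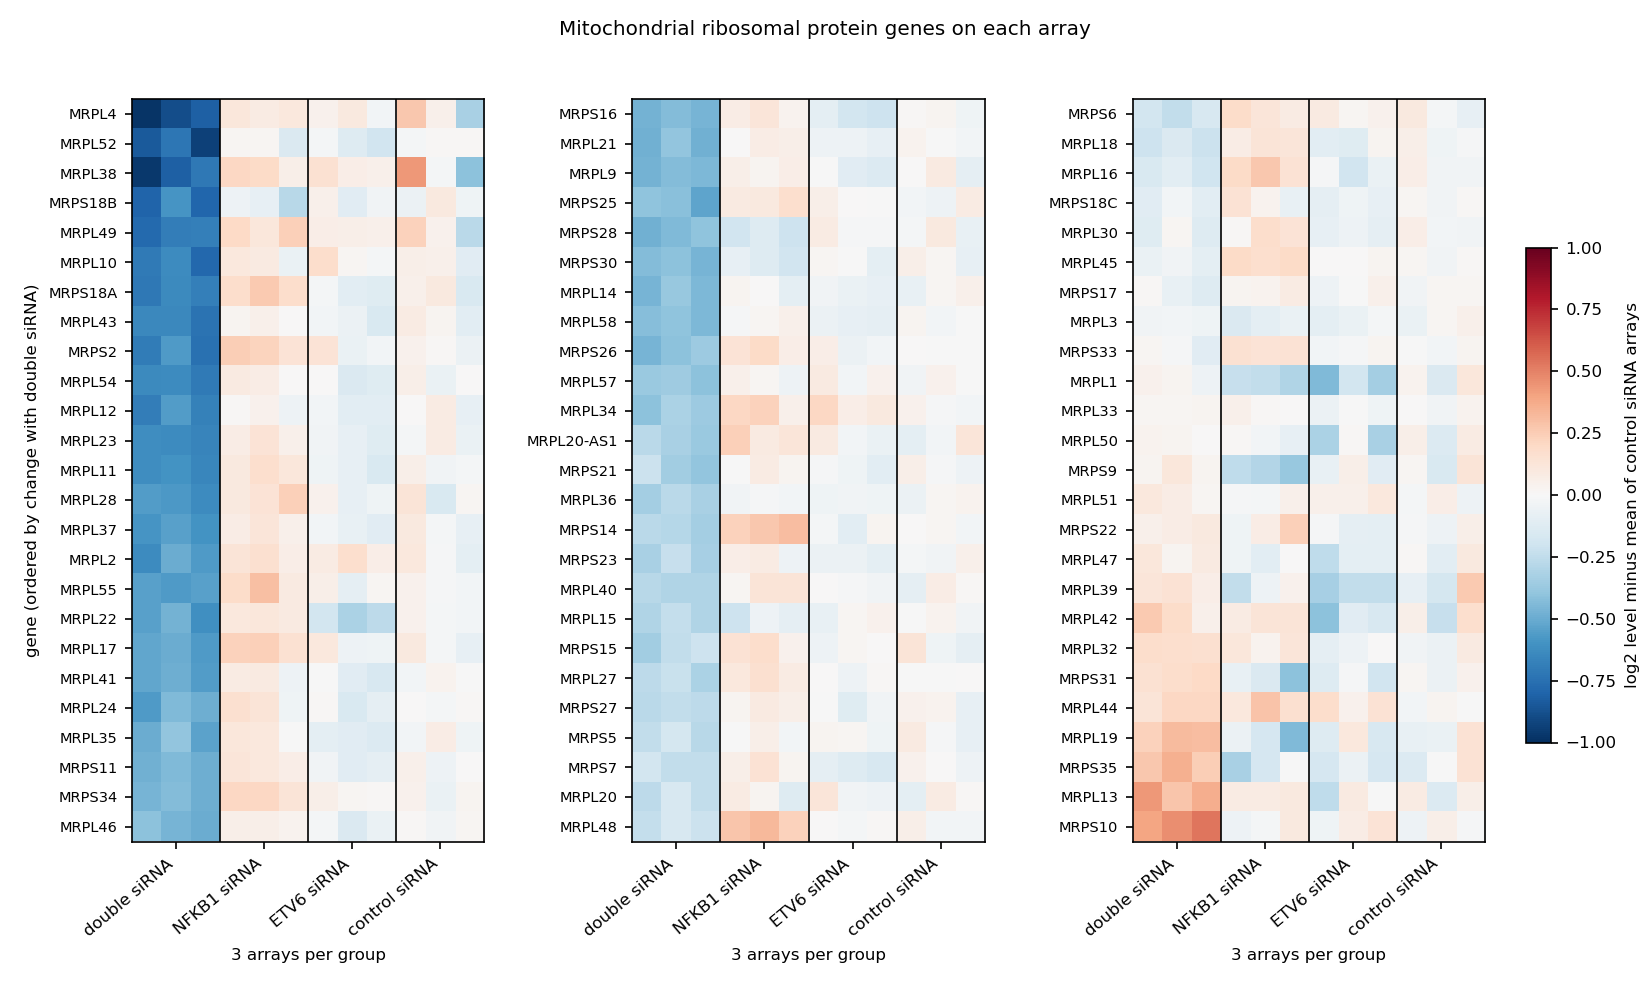
Each row is 1 of the 75 genes and each column 1 of the 12 arrays, coloured by log2 level minus the mean of the 3 control siRNA arrays, with genes ordered by their change with double siRNA. The 53 genes that fell fill the left and middle panels and the top of the right one, where the double siRNA columns are blue (lower), and these columns are red at the foot of the right panel, at MRPL19, MRPS35, MRPL13 and MRPS10.

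The shift was of like size on each of the 3 double siRNA arrays. The mean deviation of the 75 members from the control mean was -0.31, -0.27 and -0.32 on the double siRNA arrays. It was 0.06, 0.07 and 0.03 on the NFKB1 siRNA arrays and -0.03, -0.05 and -0.06 on the ETV6 siRNA arrays, against 0.03, -0.01 and -0.01 on the control siRNA arrays. On the double siRNA arrays 57, 58 and 60 members lay below their control mean. The counts were 46, 55 and 54 on the ETV6 siRNA arrays and 19, 16 and 24 on the NFKB1 siRNA arrays. On the control siRNA arrays themselves they were 27, 45 and 42. Below the lowest control array lay 56, 54 and 58 members with double siRNA, beside 26, 31 and 34 with ETV6 siRNA and 10, 10 and 16 with NFKB1 siRNA. These counts by array are not given for all genes. By group means, 59 members were below control with double siRNA, 56 with ETV6 siRNA and 17 with NFKB1 siRNA. Of the 7760 genes tested, 4592, 3844 and 3718 were below control, in the same order. The SD within groups, pooled over the groups for each member, had a median of 0.06, which was small beside the shift with double siRNA. This pooled SD ran from 0.02 for MRPL45 to 0.22 for MRPL38. Within a single group the spread could be larger: the SD of the control siRNA arrays was 0.42 for MRPL38 and 0.30 for MRPL4.

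The lowest changes with double siRNA belonged mainly to the large subunit. MRPL4, a protein of bacterial type, had log2 levels of 9.08, 9.17 and 9.24 in double siRNA cells, against 10.33, 10.11 and 9.74 in control siRNA cells. The groups did not overlap, and the control arrays were spread more widely than the double siRNA arrays. The change was -0.90 ± 0.11 (SE), or 1.86-fold lower (adjusted p = 2.69e-05). MRPL38, a mitochondria-specific protein of the central protuberance, had 7.61, 7.75 and 7.86 in double siRNA cells, against 8.999, 8.55 and 8.16 in control siRNA cells. Again no array overlapped, and again control array 3 was the lowest of its group. The change of MRPL38 was -0.83 ± 0.16 (adjusted p = 0.000453). Control array 3 also had the lowest ACTB 5′ minus 3′ difference of the controls, -1.91, against -1.54 and -1.73. Without it the changes were -1.06 for MRPL4 and -1.04 for MRPL38, and without control array 1, the highest of its group for both genes, -0.76 and -0.62.

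MRPL52, a mitochondria-specific protein of the large subunit, had the tightest control values of the 6 members with the lowest changes. Its log2 levels were 10.22, 10.34 and 10.13 in double siRNA cells, against 11.05, 11.08 and 11.07 in control siRNA cells. Every double siRNA array was below every control array, and the change was -0.83 ± 0.07 (adjusted p = 2.24e-06). MRPS18B, a human relative of bacterial S18 in the small subunit, fell by 0.73 ± 0.08 on the log2 scale (adjusted p = 1.06e-05). MRPL49 fell by 0.72 ± 0.10 (adjusted p = 4.32e-05). MRPL10, the anchor of the stalk on which translation factors dock, had 9.18, 9.27 and 9.11 in double siRNA cells, against 9.95, 9.95 and 9.78 in control siRNA cells, a change of -0.71 ± 0.07 (adjusted p = 6.86e-06).

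**Figure D2:**
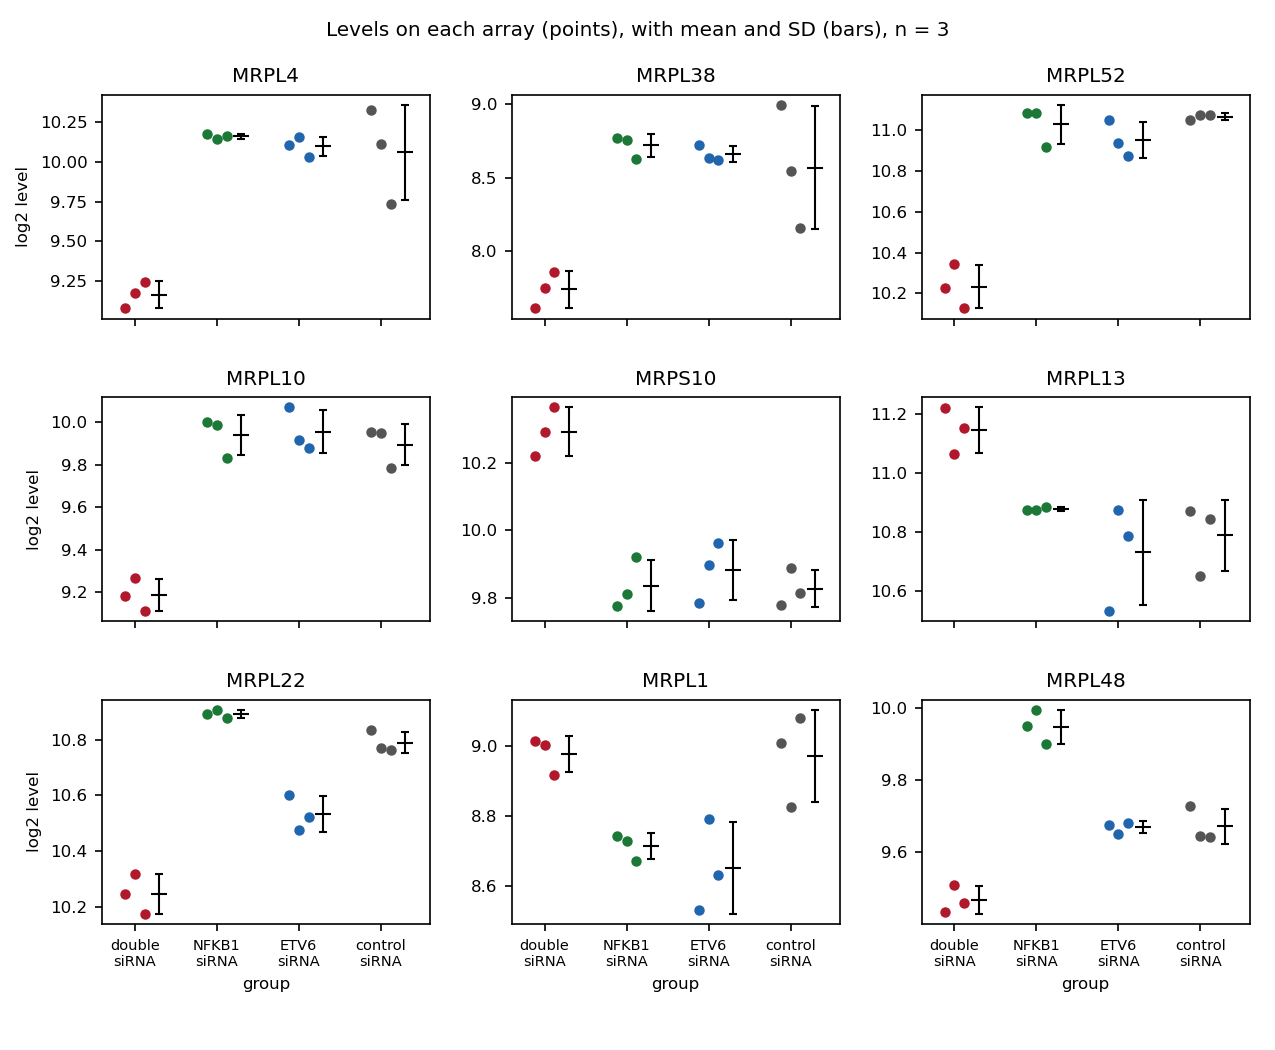
Points are log2 levels on single arrays of 9 genes in double siRNA, NFKB1 siRNA, ETV6 siRNA and control siRNA cells, and the bars beside them are means with SD (n = 3). The double siRNA points lie below all others for MRPL4, MRPL38, MRPL52, MRPL10, MRPL22 and MRPL48 and above all others for MRPS10 and MRPL13, while MRPL1 is lower in the NFKB1 siRNA and ETV6 siRNA cells than in double siRNA cells.

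The members that rose were fewer and moved less. MRPS10, a small-subunit protein of bacterial type, had log2 levels of 10.22, 10.29 and 10.37 in double siRNA cells, against 9.78, 9.89 and 9.81 in control siRNA cells. The change was 0.47 ± 0.06, or 1.38-fold higher (adjusted p = 3.79e-05). MRPL13, a large-subunit protein of bacterial type, had 11.22, 11.07 and 11.15 in double siRNA cells, against 10.87, 10.65 and 10.85 in control siRNA cells, and rose by 0.36 ± 0.09 (adjusted p = 0.00238). The groups did not overlap for either gene. MRPS35 (0.29), MRPL19 (0.29), MRPL44 (0.18) and MRPL32 (0.17) were the other members that rose. These smaller calls were less secure. With the arrays shifted to the same median, MRPS10 and MRPL13 alone of the 6 were called higher. MRPL19 was not called when control array 1, control array 2, double siRNA array 2 or double siRNA array 3 was left out (adjusted p = 0.0717, 0.0713, 0.0615 and 0.0579).

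Both subunits held members that fell. Of 50 large-subunit members, MRPS18A and MRPS30 included because their products sit in that subunit, 36 fell and 4 rose, with a median change of -0.43. Of 24 small-subunit members 16 fell and 2 rose, with a median of -0.26. By origin, 32 of 44 proteins of bacterial type fell and 4 rose (median -0.30), and 20 of 30 mitochondria-specific proteins fell and 2 rose (median -0.40). The mitochondria-specific class was taken to include MRPS18A and MRPS18B, which fell and are relatives of bacterial S18, so for these it departs from the definition above. Of all genes tested 49% were called lower and 31.9% higher, with a median of -0.13. These counts and medians describe the groups, and no test was made between them.

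All 4 stalk members fell with double siRNA, in a comparison in which 49% of all genes tested were called lower: MRPL10, MRPL11 (-0.63), MRPL12 (-0.64) and MRPL54 (-0.66), with a median of -0.65. MRPL12 is the protein that recruits elongation factors and MRPL11 forms the stalk base. MRPL11 had log2 levels of 9.85, 9.87 and 9.82 in double siRNA cells, against 10.52, 10.43 and 10.45 in control siRNA cells, with no overlap. All 5 members of the central protuberance fell: MRPL38, MRPL40 (-0.29), MRPL46 (-0.46), MRPL48 (-0.20) and MRPL58 (-0.42), with a median of -0.42. MRPL58 is also known as a peptidyl-tRNA hydrolase that frees stalled chains.

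Proteins around the exit of the peptide tunnel, where new chains meet the inner membrane, were called lower in 3 of 6 and higher in 1, beside 49% and 31.9% of all genes. MRPL22 (-0.54), MRPL23 (-0.64) and MRPL24 (-0.50) fell. MRPL44 rose, and MRPL45, which ties the ribosome to the membrane, and MRPL47 were not called, with changes of -0.07 and 0.08. The 16 members that were not called lay between -0.08 and 0.18, with a median interval half-width over the 75 members of 0.12 on the log2 scale. Among them MRPL3 had 12.07, 12.07 and 12.06 in double siRNA cells, against 12.03, 12.12 and 12.15 in control siRNA cells, a change of -0.04 ± 0.05.

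Because ETV6 belongs to the ETS family, the promoters of the members were searched for ETS letters. Windows of 250 bases before to 50 bases after the start were taken from RefSeq promoters of GRCh38.p14, which matched 67 of the 75 members. These 67 members have 82 windows, since some have more than 1 start, and a gene was counted where any of its windows held the letters. The ETS letters CCGGAAG, searched on both strands, were found for 29 of the 67 members (43.3%), beside 12.2% of 27305 genes with a window and 16.5% of the 15843 that code for protein. The windows of 6 members are shown from base -100 to base 20 around the start, with the ETS letters, or their complement, in capitals: the 4 members with these letters here that had the lowest called changes with double siRNA, the 1 with the highest, and the 1 called with ETV6 siRNA.
MRPL52, chr14:22829787-22829906, plus strand: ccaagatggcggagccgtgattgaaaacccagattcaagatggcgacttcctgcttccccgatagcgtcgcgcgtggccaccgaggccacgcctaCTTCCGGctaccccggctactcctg
MRPS18A, chr6:43687772-43687891, minus strand: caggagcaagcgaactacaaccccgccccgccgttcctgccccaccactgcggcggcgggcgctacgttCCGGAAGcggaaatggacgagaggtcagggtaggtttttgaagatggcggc
MRPL43, chr10:100987478-100987597, minus strand: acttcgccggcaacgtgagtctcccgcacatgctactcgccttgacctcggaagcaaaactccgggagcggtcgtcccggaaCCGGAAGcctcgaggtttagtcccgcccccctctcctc
MRPL54, chr19:3762582-3762701, plus strand: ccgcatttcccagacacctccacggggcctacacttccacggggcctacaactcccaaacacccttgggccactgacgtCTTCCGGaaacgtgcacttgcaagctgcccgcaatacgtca
MRPS10, chr6:42217842-42217961, minus strand: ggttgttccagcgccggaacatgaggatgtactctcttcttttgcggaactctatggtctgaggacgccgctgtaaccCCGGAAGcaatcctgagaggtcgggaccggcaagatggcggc
MRPS16, chr10:73252625-73252744, minus strand: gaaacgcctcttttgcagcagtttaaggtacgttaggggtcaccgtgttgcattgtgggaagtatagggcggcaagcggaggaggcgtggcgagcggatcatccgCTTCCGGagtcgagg

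The letters begin at base -5 in MRPL52, -31 in MRPS18A, -18 in MRPL43, -21 in MRPL54, -22 in MRPS10 and 6 in MRPS16, counted from the start with no base 0. These windows were chosen by the direction of change, so they do not tell how often the letters go with a fall or a rise. With double siRNA, 19 of the 29 members with the letters fell and 1 rose (median -0.27). Of the 38 without them 27 fell and 4 rose (median -0.37), beside 49% and 31.9% of all genes tested (median -0.13). With ETV6 siRNA alone the medians were -0.06 with the letters and -0.04 without. The YY1 letters AAGATGGC were found for 19 of the 67 members (28.4%), beside 3.52% of all genes with a window and 4.66% of those that code for protein. The NRF1 letters (GCGCA, any base, then GCGC) were found for 9 members (13.4%), beside 6.98% of all genes and 9.67% of coding genes. The NF-kB letters (GGGA, any base, then TTTCC) were found for 2 members (2.99%), beside 0.678% of all genes and 0.663% of coding genes. A match describes the sequence and shows no binding.

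One pair of members shares a promoter region. MRPL46 and MRPS11 start head to head with their starts 320 bases apart, and both fell with double siRNA, by 0.46 and 0.47 on the log2 scale. MRPL46 had 8.98, 8.92 and 8.89 in double siRNA cells, against 9.40, 9.35 and 9.41 in control siRNA cells, and MRPS11 had 10.88, 10.91 and 10.86 against 11.40, 11.30 and 11.36. The groups did not overlap for either gene. In all, 25 members had a divergent neighbour within 1000 bases, in 26 pairs, the pair of MRPL46 and MRPS11 being counted from each side. Of the neighbours that are no members themselves, 13 were tested, and 7 fell and 3 rose, which is 53.8% and 23.1%, beside 49% and 31.9% of all genes.

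With NFKB1 siRNA alone fewer members were called. Against control siRNA 12 members (16%) rose and 3 (4%) fell, beside 15.5% of all genes called higher and 25.1% called lower, so that the share that rose was near that of all genes. The median member change was 0.08, and that of all genes 0.01. No member passed 1.5-fold. MRPL48, of the central protuberance, had log2 levels of 9.95, 9.99 and 9.90 in NFKB1 siRNA cells, against 9.73, 9.64 and 9.64 in control siRNA cells, and rose by 0.28 ± 0.05 (adjusted p = 0.000748). MRPS14, a small-subunit protein of bacterial type, had 11.03, 11.07 and 11.11 in NFKB1 siRNA cells, against 10.81, 10.82 and 10.77 in control siRNA cells, and rose by 0.27 ± 0.05 (adjusted p = 0.00112). Neither gene's groups overlapped. The dimmer second probe set of MRPS14 was lower by 0.57 with NFKB1 siRNA.

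MRPL17 (0.21), MRPS18A (0.21), MRPS2 (0.20) and MRPL16 (0.20) came next among the members that rose with NFKB1 siRNA. MRPL45, which was not called with double siRNA, rose by 0.19 ± 0.04 (adjusted p = 0.0041). Of the members that fell, MRPS9, a small-subunit protein of bacterial type, had 8.13, 8.09 and 8.001 in NFKB1 siRNA cells, against 8.40, 8.23 and 8.51 in control siRNA cells, a change of -0.31 ± 0.07 (adjusted p = 0.00616). MRPL1 (-0.26) and MRPS28 (-0.17) were the others. The count of members that rose depended on single arrays: it was 19 without control array 1, 7 without control array 2, 7 without NFKB1 siRNA array 1 and 4 without NFKB1 siRNA array 2. In the same order, 1572, 1044, 796 and 708 of the 7760 genes tested were called higher, against 1200 with all arrays. The count of members that fell was 5 without control array 1, when 2075 of all genes were called lower, against 1948 with all arrays. MRPL16, MRPL17, MRPS2 and MRPS18A lost the call without NFKB1 siRNA array 2 (adjusted p = 0.0735, 0.0642, 0.089 and 0.0933), and MRPL1 and MRPS28 without NFKB1 siRNA array 3 (adjusted p = 0.0554 and 0.065). The split also moved with scaling. With the arrays shifted to the same median 33 members were called higher and 1 lower, beside 31.3% and 19.0% of all genes. That shift moved the median of all genes to 0.10. After quantile normalization 28 members were called higher and 1 lower, beside 28.2% and 20.9% of all genes.

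**Figure D3:**
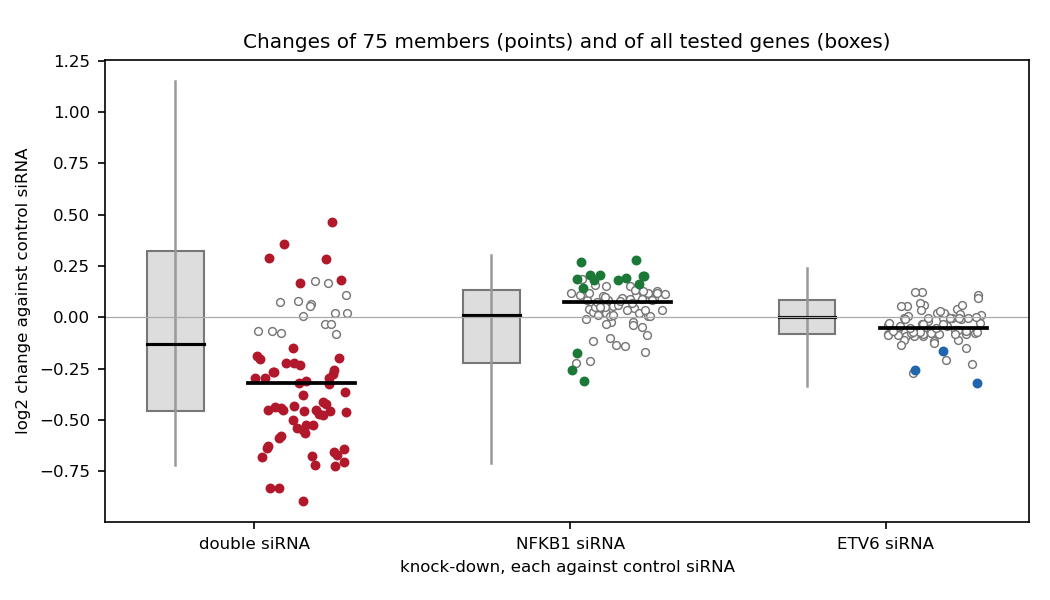
The vertical axis is the log2 change against control siRNA for double siRNA, NFKB1 siRNA and ETV6 siRNA. Points are the 75 members (filled where called at an adjusted p under 0.05, with a line at their median), and boxes show the quartiles and median of the 7760 genes tested, with lines to the 5th and 95th percentiles. The members' medians are -0.32, 0.08 and -0.05, beside -0.13, 0.01 and 0.00 for all genes.

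ETV6 siRNA alone changed few members. Against control siRNA 3 fell, beside 6.28% of all genes called lower. None of the 75 rose (limma), beside 4.38% of all genes called higher, and 8 members had an unadjusted p under 0.05 in either direction. MRPL22, of the tunnel exit, had 10.60, 10.48 and 10.52 in ETV6 siRNA cells, against 10.83, 10.77 and 10.76 in control siRNA cells, with no overlap, a change of -0.26 ± 0.05 (adjusted p = 0.00897). MRPL1, which binds ribosomal RNA at the tRNA exit side, had 8.53, 8.79 and 8.63 in ETV6 siRNA cells, against 9.01, 8.83 and 9.08 in control siRNA cells. Its change was -0.32 ± 0.08 (adjusted p = 0.0208), and it was not called without ETV6 siRNA array 1 or array 3 (adjusted p = 0.0886 and 0.0728). MRPS16 changed by -0.16 ± 0.05 (adjusted p = 0.0428) and lost its call in 15 of the alternatives run. Without ETV6 siRNA array 3, MRPL22 alone of the 75 was called. The median member change was -0.05, and that of all genes 0.00.

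Calls across the 3 knock-downs were also set side by side. Of the 75 members, 41 (54.7%, beside 34.2% of all genes tested) fell with double siRNA and were not called with either siRNA alone. Another 9 (12%, beside 8.83% of all genes) fell with double siRNA, rose with NFKB1 siRNA and were not called with ETV6 siRNA. Then 5 (6.67%, beside 13.5%) rose with double siRNA and were not called with either siRNA alone, and 12 (16%, beside 8.90%) were called in none of these comparisons. MRPL1 fell with each siRNA alone and was at the control level with both. It had 9.01, 9.002 and 8.92 in double siRNA cells, a change of 0.01 ± 0.08. These 3 comparisons share the control arrays, so their values are given side by side only.

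Set against each siRNA alone, the double siRNA cells again had mostly lower members. Against NFKB1 siRNA 57 fell and 7 rose, beside 51.4% and 37.7% of all genes, with a median of -0.39 for members and -0.16 for all genes. Changes of over 1.5-fold downward were found in 26.7% of members and 25.2% of all genes. MRPL4 (-0.996), MRPL38 (-0.98), MRPL49 (-0.90) and MRPS18A (-0.89) were lowest. MRPS18A, a relative of bacterial S18 that sits in the large subunit, had 9.21, 9.29 and 9.25 in double siRNA cells, against 10.11, 10.20 and 10.11 in NFKB1 siRNA cells, with no overlap. MRPL19 (0.51), MRPS35 (0.46), MRPS10 (0.46) and MRPS31 (0.39) were highest.

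Against ETV6 siRNA 51 members fell and 11 rose with double siRNA, beside 51.2% and 34.9% of all genes. The medians were -0.28 for members and -0.15 for all genes, and 13.3% of members and 15.4% of all genes were lower by over 1.5-fold. MRPL4 (-0.93), MRPL38 (-0.92), MRPL49 (-0.78) and MRPL10 (-0.77) were lowest, and MRPS35 (0.42), MRPL13 (0.41), MRPS10 (0.41) and MRPL42 (0.39) were highest. MRPL42 had 9.85, 9.77 and 9.64 in double siRNA cells, against 9.18, 9.47 and 9.42 in ETV6 siRNA cells, with no overlap.

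Between the single knock-downs, ETV6 siRNA cells had 22 members lower and 2 higher than NFKB1 siRNA cells, beside 13.1% and 21.8% of all genes. The median was -0.11 for members and 0.00 for all genes. MRPL22 (-0.36), MRPL42 (-0.34), MRPS14 (-0.30) and MRPL16 (-0.29) were lowest. MRPL22 had 10.60, 10.48 and 10.52 in ETV6 siRNA cells, against 10.89, 10.91 and 10.88 in NFKB1 siRNA cells. MRPS9 (0.27) and MRPS28 (0.20) were higher. The count of lower members was 12 without ETV6 siRNA array 2, 13 without ETV6 siRNA array 3, 13 without NFKB1 siRNA array 1 and 10 without NFKB1 siRNA array 2. In the same order, 563, 583, 675 and 571 of the 7760 genes tested were lower, against 1014 with all arrays. The count of higher members was 1 without ETV6 siRNA array 1 or 2 or without NFKB1 siRNA array 1 or 3. Of all genes, 1513, 1102, 1412 and 1390 were higher then, against 1695 with all arrays. MRPL42 was not called without ETV6 siRNA array 1 or without any of the 3 NFKB1 siRNA arrays (adjusted p = 0.0872, 0.0517, 0.0704 and 0.0595). With the arrays shifted to the same median 44 members were lower and 1 higher, beside 26.7% and 16.1% of all genes. That shift moved the median of all genes to -0.08. After quantile normalization 35 members were lower and 2 higher, beside 22.4% and 18.4% of all genes.

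The interaction asks whether the change with both siRNAs equals the sum of the changes with each, on the log2 scale. For 53 members it was called lower than that sum and for 9 higher, beside 49.8% and 36.5% of all genes. The median was -0.37 for members and -0.18 for all genes, and 25.3% of members and 27.9% of all genes were lower by over 1.5-fold. MRPL38, MRPL4, MRPL49 and MRPS2 were lowest. MRPS2 had 9.09, 9.22 and 9.04 in double siRNA cells, 10.03, 10.01 and 9.92 in NFKB1 siRNA cells and 9.92, 9.72 and 9.75 in ETV6 siRNA cells, against 9.83, 9.79 and 9.73 in control siRNA cells. The double siRNA arrays were the lowest group and the NFKB1 siRNA arrays the highest on average, with an interaction of -0.89 ± 0.09 (adjusted p = 9.81e-06).

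Where a gene had several probe sets, they did not always move together. Of the members 23 had more than 1 probe set, 60 in all. With double siRNA 18 of the 23 were called, and all probe sets had the same sign in 11 of them. MRPL4 was among these, with changes of -0.90, -0.94 and -0.83, and so was MRPS10, with 0.47, 0.43 and 0.43. The sign differed in MRPL35, MRPL44, MRPL57, MRPS14, MRPS15, MRPS23 and MRPS30. In MRPS30 the brightest probe set changed by -0.44 and the others by 0.97 and 0.64. Among the probe sets that were not the brightest of their gene, the dim ones went the other way: of 17 with a control mean under log2 8, 14 were higher with double siRNA (median 0.64), while of 20 at log2 8 or more, 13 were lower (median -0.42). Over all single-gene probe sets the median was 0.09 under log2 8, where 54.5% were higher with double siRNA. It was -0.11 at log2 8 or more, where 41.4% were higher.

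**Figure D4:**
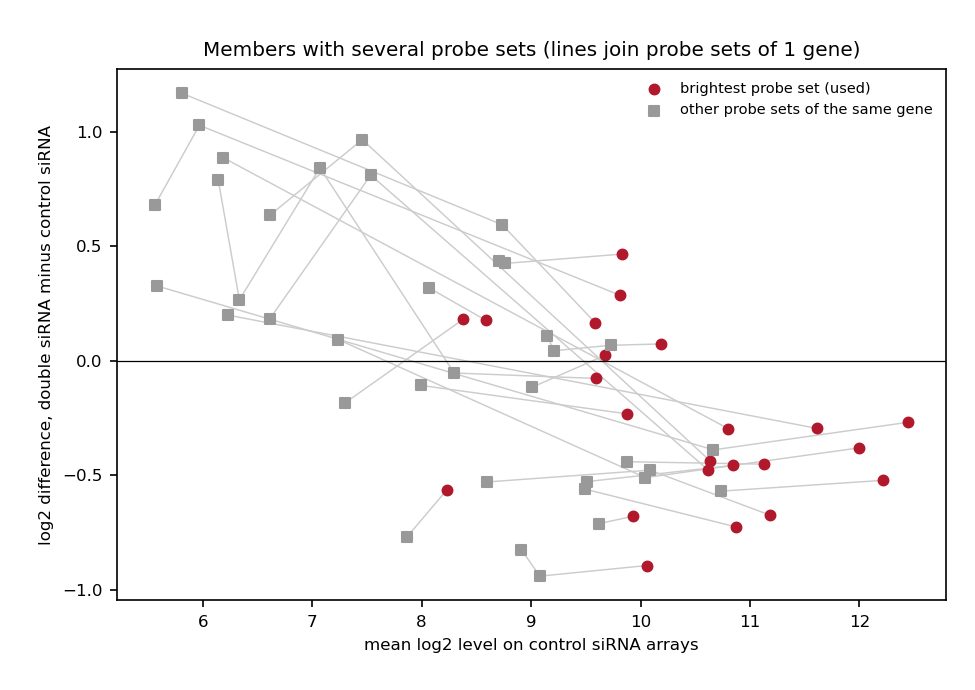
Each point is a probe set of a member with several, with its mean log2 level on control siRNA arrays on the horizontal axis and the log2 difference between double siRNA and control siRNA on the vertical axis; lines join probe sets of the same gene. The brightest, used probe sets (circles) lie mostly below 0, while 14 of the 17 others under log2 8 lie above it.

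Genes that act with the mitochondrial ribosome were also measured, in a comparison in which 49% of all genes tested were called lower and 31.9% higher (median -0.13). Of the mitoribosome proteins with other names, 4 were tested: PTCD3, a small-subunit protein, rose by 0.66 and GADD45GIP1, a large-subunit protein, fell by 0.65 with double siRNA, and DAP3 (-0.09) and CHCHD1 (-0.07) were not called. Of 21 assembly factors tested, 16 fell and 4 rose (median -0.39). MTG1 (-0.67), MTG2 (-0.64) and NOA1 (-0.39), GTPases of ribosome assembly, fell, and FASTKD2, an RNA-binding protein, rose by 1.10. The control mean of FASTKD2, 7.60 ± 0.31 (SD, n = 3), was near the filter of log2 7.54, in the dim range described above. Of 13 mitochondrial tRNA synthetases 8 fell and 3 rose (median -0.34). EARS2 (-0.62) and FARS2 (-0.53) fell, and IARS2 (0.80) and RARS2 (0.51) rose.

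Of 13 translation factors 4 fell and 5 rose (median -0.04). TUFM, the mitochondrial elongation factor Tu, had a mean of 10.95 ± 0.02 in double siRNA cells, against 11.62 ± 0.08 in control siRNA cells (SD, n = 3 each), and fell by 0.67, and TACO1 fell by 0.64. LRPPRC, which stabilises mitochondrial messages, rose by 1.15, and MTRF1L, a release factor, by 0.81. Of 11 genes of mitochondrial transcription and its regulators 5 fell and 5 rose (median -0.09). TFAM, which packages mitochondrial DNA and acts in its transcription, rose by 1.14, while ESRRA (-0.72), MYC (-0.71) and PPRC1 (-0.69) fell. GABPA, the DNA-binding subunit of GABP, was picked out after its values were seen: it averaged 8.99 ± 0.03 in double siRNA cells, against 7.57 ± 0.54 in control siRNA cells, and rose by 1.41 (adjusted p = 0.000229). Its control mean was near the filter of log2 7.54, in the same dim range as that of FASTKD2.

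MRPS12, left out of the members, is a small-subunit protein of the decoding centre. It had log2 levels of 9.83, 9.86 and 9.81 in double siRNA cells and 10.29, 10.38 and 10.12 in NFKB1 siRNA cells, with 11.72, 11.61 and 11.65 in ETV6 siRNA cells, against 11.50, 11.66 and 11.51 in control siRNA cells. Its change was -1.72 with double siRNA, where the 75 members ranged from -0.90 to 0.47. With NFKB1 siRNA it was -1.29, where they ranged from -0.31 to 0.28. Because MRPS12 was left out with earlier results known, these values are no test of a difference from the members.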

How the data were processed

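Total RNA of U251 cells was measured on 12 Affymetrix arrays, 3 in each of 4 siRNA groups. The authors deposited log2 values of 19520 probe sets. Background correction, summarization and normalization of these values are not given in the sources used here. No counts lie behind an array value, and the number of arrays limits its precision.

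Genes were named from the platform's probe table, and 17319 probe sets named a single gene. Each of 10346 genes was represented by its brightest probe set on average over the 12 arrays. Low genes, below the 25th percentile of gene means (log2 7.54), were dropped unless an siRNA targeted them, which left 7760. Entrez identifiers of all 75 members were in the RefSeq gene table of GRCh38.p14.

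With limma 3.58.1 (R 4.3.3), group means were estimated in a single linear model of the 12 arrays by lmFit, and variances were moderated by eBayes, with residual degrees of freedom of 8 and a prior of 3.41. The procedure was tested on simulated data. P-values are two-sided and were adjusted by Benjamini-Hochberg over all genes tested in each of 7 comparisons. A gene was called at an adjusted p under 0.05. Separate cultures are not named in the labels for the arrays within a group. The p-values therefore reflect only the spread among these samples, which may be technical.

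The members, gene lists, motifs and tests were chosen with earlier results of these data known. Members were named for a comparison with control siRNA if they had the 6 highest or 6 lowest changes among those called, and for other comparisons the 4 highest or 4 lowest. Members of the structural groups, members with discordant probe sets, and the 4 genes of each pathway list with the smallest adjusted p with both siRNAs were also named. Alternatives changed the scaling, the filter, the choice of probe sets, the variance model and the arrays used.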

Additional observations from a re-analysis of the deposited data

Results flagged for a closer look

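For many members the log2 change with both siRNAs differed from the sum of the changes with each, by the test of the interaction (limma, adjusted p under 0.05). It was called lower than additive in 53 members and higher in 9, beside 49.8% and 36.5% of all genes. Depletion of ETV6 was not equal: its log2 level was 0.64 higher in double siRNA cells than in ETV6 siRNA cells (limma, adjusted p = 0.000157). The part of this in the interaction was not tested. The lowest log2 interactions were those of MRPL38 (-1.08, adjusted p = 0.000771), MRPL4 (-1.03, adjusted p = 0.000105), MRPL49 (-0.96, adjusted p = 6.04e-05) and MRPS2 (-0.89, adjusted p = 9.81e-06). The highest were those of MRPS35 (0.59, adjusted p = 0.000747), MRPL1 (0.58, adjusted p = 0.000346), MRPL19 (0.57, adjusted p = 0.00302) and MRPS31 (0.50, adjusted p = 0.00146). All 8 kept their sign and call under each alternative run.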

How the results depend on the processing

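Up to 22 alternatives were run for each result. The counts of members that fell with double siRNA stayed within 1.5 times of those reported in each of them: 48 to 58 against control siRNA, 46 to 57 against ETV6 siRNA, 51 to 61 against NFKB1 siRNA, and 48 to 60 for the interaction. The highest of these counts came with the arrays shifted to the same median. Of the 7760 genes tested, 4346, 4412, 4593 and 4442 were then called lower, in the same order. As deposited, 3801, 3975, 3988 and 3864 were called lower. With the arrays shifted to the same median, 2 members rose with double siRNA, 33 rose and 1 fell with NFKB1 siRNA, 44 were lower and 1 higher for ETV6 siRNA against NFKB1 siRNA, and 5 had a higher interaction. Of all genes, 26.4% rose with double siRNA under that shift, and 31.3% rose and 19.0% fell with NFKB1 siRNA. For ETV6 siRNA against NFKB1 siRNA 26.7% were lower and 16.1% higher, and 29.7% had a higher interaction. After quantile normalization 28 members rose and 1 fell with NFKB1 siRNA, beside 28.2% and 20.9% of all genes. Then 35 members were lower with ETV6 siRNA than with NFKB1 siRNA, beside 22.4% of all genes. With array weights 14 members rose with double siRNA, 33 rose and 7 fell with NFKB1 siRNA, 11 fell with ETV6 siRNA, 12 rose with double siRNA against NFKB1 siRNA, and 37 were lower with ETV6 siRNA than with NFKB1 siRNA. Of the 7760 genes tested, the weights gave 2778 higher with double siRNA, and 2331 higher and 2378 lower with NFKB1 siRNA. They also gave 1238 lower with ETV6 siRNA and 2999 higher for double siRNA against NFKB1 siRNA. For ETV6 siRNA against NFKB1 siRNA 2151 were lower. Fitted on only the groups compared, 3 members rose and 1 fell with NFKB1 siRNA and 0 fell with ETV6 siRNA (limma). Of all genes, 555 rose and 1300 fell with NFKB1 siRNA in that fit, and 121 fell with ETV6 siRNA. Averaging all probe sets of a gene gave 11 members higher with double siRNA than with NFKB1 siRNA, beside 2934 of 7761 genes. The 50th percentile filter gave 1 member as higher for ETV6 siRNA against NFKB1 siRNA, beside 1233 of 5175 genes. The causes were not tested.

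Leaving out 1 array at a time, 4 to 19 members rose and 2 to 5 fell with NFKB1 siRNA, 1 to 3 fell with ETV6 siRNA, and 10 to 29 were lower and 1 to 2 higher for ETV6 siRNA against NFKB1 siRNA. Of the 7760 genes tested, 708 to 1572 rose and 1635 to 2075 fell with NFKB1 siRNA, and 259 to 535 fell with ETV6 siRNA. For ETV6 siRNA against NFKB1 siRNA 563 to 1444 were lower and 1102 to 2210 higher. Of 54 named member results, 36 kept their direction and call throughout. Over 1168 values 69 lost the call and 4 changed sign, all when probe sets of a gene were averaged: MRPL44 with double siRNA (-0.0017), MRPS14 with NFKB1 siRNA (-0.15), and MRPL42 (0.061) and MRPS14 (0.17) with ETV6 siRNA against NFKB1 siRNA.

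Whether the replicate numbers pair the arrays was not settled. Replicate 3 had the lowest poly-A spike-in mean of its group each time: 7.97 with double siRNA, 8.51 with NFKB1 siRNA, 8.37 with ETV6 siRNA and 8.53 with control siRNA. Deviations from group means correlated from -0.52 to 0.48 over 18 pairs with the same number and from -0.52 to 0.64 over 36 pairs with different numbers. With the replicate number as a block, 53 members fell and 6 rose with double siRNA, 4 fell and 12 rose with NFKB1 siRNA, and 3 fell with ETV6 siRNA. Of the 7760 genes tested, 3818 fell and 2465 rose with double siRNA, 1935 fell and 1260 rose with NFKB1 siRNA, and 442 fell with ETV6 siRNA. The block gave 50 lower and 11 higher for double siRNA against ETV6 siRNA, 56 and 7 against NFKB1 siRNA, 22 and 2 for ETV6 siRNA against NFKB1 siRNA, and 54 and 9 for the interaction. Over all genes these were 3980 and 2707, 3988 and 2918, 1070 and 1647, and 3856 and 2826, in the same order. The median SE of a member's change was 0.055 with 3 arrays a group. The smallest change called with double siRNA was 0.15, and signals near background limit what dim probe sets can show.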

Other observations

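There were 4 probe sets with a mitochondrial ribosomal protein symbol that name several genes, and these were left out. The probe set shared by MRPS24 and a readthrough transcript, URGCP-MRPS24, had log2 levels of 11.98, 12.01 and 12.01 in double siRNA cells, against 12.50, 12.53 and 12.51 in control siRNA cells, a difference of -0.51. The probe set shared by MRPL53, a stalk protein, and CCDC142 had 11.28, 11.29 and 11.23 in double siRNA cells, against 11.66, 11.67 and 11.59 in control siRNA cells, a difference of -0.37. The groups did not overlap in either. The probe set of MRPL51 and SPTLC1 differed by 0.05, and that of the pseudogene MRPS31P5 and THSD1 by -0.20. Which of the genes gives the signal of such a probe set cannot be told.

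Member changes with double siRNA were also set out by brightness. In 4 bins of 1940 tested genes each, from dimmest to brightest, there were 4, 6, 26 and 39 members. The members' medians were -0.44, -0.22, -0.28 and -0.32, and those of all genes -0.13, -0.19, -0.13 and -0.11.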
